A study of Mus musculus with 16 samples.

Results

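The 5 genes described here encode killer-cell receptors of the C-type lectin type: Klra6 and Klra9 of the Ly49 family, Klrb1c and Klrb1f of the NK1.1 type, and Klrg1. They were chosen by gene symbol, as probe sets annotated with that symbol alone, and each of the 5 had 1 such probe set among the 22180 genes measured. RNA came from CD8 T cells of the spleens of female C57BL/6 mice, all of which had received leukemia cells from Eµ-TCL1 mice, a model of chronic lymphocytic leukemia (CLL), 6 weeks earlier. The cells carried TCRb and CD8 and lacked lineage markers, and flow cytometry divided them into naive (high CD127, low CD44), memory (high CD127, high CD44), PD-1int effector and PD-1hi effector cells. The effector cells were gated as low for CD127 with CD44 from intermediate to high, and their level of PD-1, a surface receptor that restrains T cells, set the PD-1int and PD-1hi subsets apart. There were 4 arrays per subset and 16 in all, so that the receptors could be followed across the sorted states of CD8 T cells in leukemic mice. No sample came from a mouse without leukemia. The labels do not say whether the arrays of a subset came from separate mice, so p-values measure the spread between these samples, which may be technical.

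Ly49 receptors are homodimers on natural killer (NK) cells and on some T cells. Many of them bind class I MHC, and the inhibitory ones, among them Ly49F (Klra6) and Ly49I (Klra9), carry a cytoplasmic tyrosine motif that recruits the phosphatases SHP-1 (Ptpn6) and SHP-2 (Ptpn11). NK1.1 (Klrb1c) is an activating receptor that signals through the FcR gamma chain (Fcer1g) and serves as the marker of NK cells in C57BL/6 mice. NKR-P1F (Klrb1f) is a relative whose known ligand, Clr-g, is the product of Clec2i. KLRG1 (Klrg1) is an inhibitory receptor for cadherins and a surface marker of short-lived effector CD8 T cells and mature NK cells.

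All 5 genes lie on mouse chromosome 6 (GRCm38.p6, RefSeq). Klrg1 spans chr6:122270596-122282833. Klrb1c lies at chr6:128778485-128788641 and Klrb1f at chr6:129045837-129059724. Klra6 lies at chr6:130013033-130026960 and Klra9 at chr6:130178626-130194374. RefSeq promoter windows were matched for 4 of the 5, Klrg1 being the exception, and the 250 bases before the start site were searched in each. The windows of Klra6 and Klra9 are shown because each of these genes was the nearest to the other in profile among all genes measured. The local alignment of the windows held 169 columns with 154 identical bases (91.1%), 13 mismatches and 2 gap columns, while the longest alignment among the other 5 pairs of windows had 38 columns. The aligned stretch of Klra6 (chr6:130027036-130027204, minus strand) ran from 250 to 82 bases before its start site. That of Klra9 (chr6:130193113-130193279, minus strand) ran from 167 bases to 1 base before the start site used by the table. This start site and the whole Klra9 stretch lie inside the longest RefSeq span of the gene. The Klra6 stretch lies outside the span of its gene. Capitals mark the bases that differ or are missing in the other gene.
Klra6: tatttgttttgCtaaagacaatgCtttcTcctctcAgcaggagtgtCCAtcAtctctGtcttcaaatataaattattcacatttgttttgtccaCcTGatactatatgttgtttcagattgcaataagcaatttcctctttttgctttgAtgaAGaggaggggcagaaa
Klra9: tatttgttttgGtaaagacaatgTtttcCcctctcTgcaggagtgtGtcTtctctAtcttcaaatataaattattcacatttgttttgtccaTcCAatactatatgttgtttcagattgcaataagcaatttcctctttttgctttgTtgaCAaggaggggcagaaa

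Short motifs were searched on both strands: GGTGTG, the core bound by T-box factors such as T-bet and Eomes, CTTTGNT, that of TCF and LEF factors, and TGTGGT, that of RUNX factors. The motifs do not contain one another, although ends of GGTGTG and TGTGGT can overlap. They were chosen after the windows had been seen, and a match is a description of letters only. CTTTGNT occurred once in Klra6 (106 bases before the start site) and once in Klra9 (25 bases before it), at the same place of the aligned stretch, and in neither Klrb1 window. GGTGTG occurred 2 times in Klrb1f and TGTGGT once in Klrb1c (89 bases before the start site). Of the 32851 RefSeq windows of this length, 5248 held CTTTGNT (16%), 5347 GGTGTG (16.3%) and 4614 TGTGGT (14%). The window of Klrb1f (chr6:129045651-129045900, plus strand), the member whose window held the T-box core, has both matches in capitals, 123 and 58 bases before the start site used by the table. The end of this window, with the match at 58, lies inside the longest RefSeq span of the gene.
Klrb1f: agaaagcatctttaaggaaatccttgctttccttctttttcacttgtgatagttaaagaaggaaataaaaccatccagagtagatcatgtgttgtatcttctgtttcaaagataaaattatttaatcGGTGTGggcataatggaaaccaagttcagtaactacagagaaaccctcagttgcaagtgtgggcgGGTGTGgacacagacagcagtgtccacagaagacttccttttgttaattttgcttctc

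The 5 receptors fell into 2 patterns. Klra6, Klra9 and Klrb1c were highest in memory cells, and Klrb1f and Klrg1 were highest in PD-1int effector cells. No receptor was highest in naive or in PD-1hi cells. Values are log2 expression of a probe set, a scale on which 1 unit is a doubling. A gene is said to rise or fall where the limma test over all 22180 genes gave a Benjamini-Hochberg adjusted p under 0.05, and differences are given ± the standard error of that fit with n = 4 arrays per subset. The files hold no detection calls, so a low value can be background, and differences from a low value are compressed. For scale, the 10th percentile of gene means over the arrays was 4.41 and the median 6.61. In sorted bulk samples, fewer cells with a transcript and less of it per cell cannot be told apart.

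**Figure D1:**
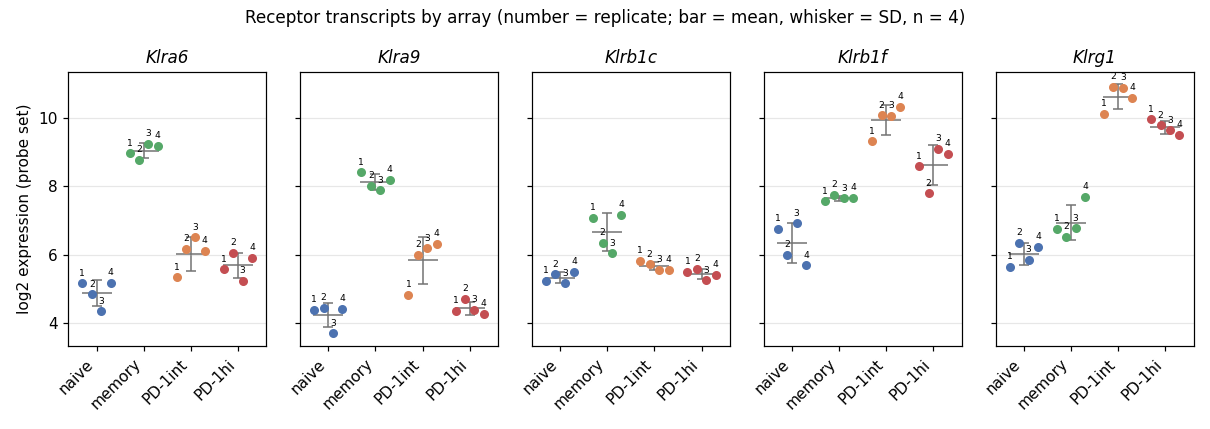
Log2 expression of Klra6, Klra9, Klrb1c, Klrb1f and Klrg1 (panels, shared vertical axis) in naive, memory, PD-1int and PD-1hi arrays, with points numbered by replicate, bars at the mean and whiskers of 1 SD (n = 4). Klra6 and Klra9 stand at 7.88 or more in every memory array and at 6.51 or less elsewhere, and Klrg1 stands at 9.51 or more in every effector array and at 7.69 or less elsewhere.

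Klra6, an inhibitory Ly49 receptor, was a memory transcript. Its log2 values were 5.16, 4.84, 4.35 and 5.17 in naive replicates 1 to 4 and 8.96, 8.78, 9.25 and 9.19 in memory. They were 5.34, 6.16, 6.51 and 6.12 in PD-1int and 5.57, 6.05, 5.24 and 5.90 in PD-1hi. Every memory array lay above every other array, all effector arrays lay above all naive arrays, and the effector subsets overlapped. The rise in memory was 4.16 ± 0.23 against naive, 17.9-fold (adjusted p = 4.73e-10). From memory the transcript was lower by 8.06-fold in PD-1int (-3.01 ± 0.23, adjusted p = 4.05e-08) and by 10.2-fold in PD-1hi (-3.35 ± 0.23, adjusted p = 4.88e-09). A remainder above naive was measured in PD-1int (1.15 ± 0.23, adjusted p = 9.54e-04) and in PD-1hi (0.81 ± 0.23, adjusted p = 0.012). The PD-1hi remainder did not pass without naive replicate 3 (0.63, adjusted p = 0.0532). In the order memory, PD-1int, PD-1hi, naive, the neighbours PD-1int and PD-1hi did not differ beyond their spread (-0.34, 95% interval -0.83 to 0.14, adjusted p = 0.569).

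Klra9, which encodes the inhibitory receptor Ly49I that recognises class I MHC, followed the same course with a lower end point. Its log2 values were 4.39, 4.44, 3.70 and 4.42 in naive and 8.41, 8.03, 7.88 and 8.18 in memory. They were 4.83, 5.99, 6.19 and 6.32 in PD-1int and 4.36, 4.72, 4.38 and 4.26 in PD-1hi. Memory arrays again stood clear of all others, PD-1int lay between, and PD-1hi overlapped naive. Against naive, Klra9 rose in memory by 3.89 ± 0.25, 14.8-fold (adjusted p = 3.82e-09), and in PD-1int by 1.60 ± 0.25 (adjusted p = 9.00e-05). PD-1hi against naive did not pass (0.19, 95% interval -0.33 to 0.72, adjusted p = 0.661). PD-1hi cells had 2.64-fold less than PD-1int cells (-1.40 ± 0.25, adjusted p = 0.00336). They had 12.9-fold less than memory cells (-3.69 ± 0.25, adjusted p = 4.13e-09), and PD-1int cells had 4.90-fold less than memory cells (-2.29 ± 0.25, adjusted p = 3.38e-06).

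Ly49 genes are close copies of one another, so the probe sets of Klra6 and Klra9 may also collect signal from other Ly49 transcripts. A further probe set is annotated with Klra9 together with another symbol, and another with Klrb1c together with another symbol, and neither was used. After each gene was centred on its mean over the 16 arrays, Klra6 and Klra9 differed by a root mean square of 0.46 log2 units, and each ranked 1 in likeness to the other among all genes. The 3 other genes nearest to both were the same. Cd163l1, a scavenger receptor, differed from Klra6 by 0.61, Cd22, an inhibitory sialic-acid-binding lectin best known from B cells, by 0.66, and Gzmm, granzyme M, by 0.67. For Klra9 the order was Gzmm (0.54), Cd22 (0.61) and Cd163l1 (0.72). Gzmm averaged 12.14 in memory, 9.32 in PD-1int, 7.60 in PD-1hi and 7.55 in naive cells (log2). Likeness is a description of the 16 arrays and carries no test.

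Klrb1c, the NK1.1 gene, was highest in memory cells with a smaller range. Its log2 values were 5.23, 5.42, 5.16 and 5.50 in naive and 7.08, 6.36, 6.04 and 7.17 in memory. They were 5.82, 5.72, 5.56 and 5.57 in PD-1int and 5.49, 5.58, 5.25 and 5.41 in PD-1hi. All memory arrays lay above all others, and the memory arrays themselves were spread over more than 1 unit, with replicates 1 and 4 high. The rise against naive was 1.33 ± 0.19, 2.52-fold (adjusted p = 7.35e-05). PD-1int and PD-1hi were 1.99-fold (-0.99 ± 0.19, adjusted p = 9.26e-04) and 2.34-fold (-1.23 ± 0.19, adjusted p = 6.64e-05) below memory. Outside memory, neighbours did not differ beyond their spread. PD-1int against naive gave 0.34 (95% interval -0.05 to 0.73, adjusted p = 0.234) although the arrays did not overlap, and passed in a fit of those 8 arrays alone (adjusted p = 0.0352). PD-1hi against naive gave 0.11 (95% interval -0.29 to 0.50, adjusted p = 0.763). PD-1hi against PD-1int gave -0.23 (95% interval -0.63 to 0.16, adjusted p = 0.655). The genes nearest in profile were Edaradd (0.24), Dennd4a (0.27) and Apobr (0.27).

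NK cell genes were examined beside Klrb1c, since it marks those cells. Of the 9 NK markers listed, 7 were measured, and 5 of the 7 rose in memory against naive, where 6.70% of all genes did. These were Itga2, the CD49b integrin (1.99 ± 0.19), Tyrobp, the DAP12 adaptor (0.91 ± 0.15), Klri2 (0.81 ± 0.09), Fcer1g (0.70 ± 0.17) and Styk1 (0.48 ± 0.11). Fcer1g, the partner of NK1.1, stood at 7.39, 6.88, 6.59 and 7.70 in memory replicates 1 to 4 and at 6.37 to 6.51 in naive. Memory replicates 1 and 4 were its highest, as for Klrb1c, but this was not particular to the pair. The same replicates were the highest memory arrays for Itga2 (8.75 and 8.63), Klra5 (7.98 and 8.14) and Klrk1 (9.44 and 9.68). For Tyrobp replicate 2 was highest (7.34). Ncr1, which encodes NKp46 and defines NK cells, averaged 5.84 ± 0.11 in memory, 5.75 ± 0.12 in PD-1int, 5.87 ± 0.04 in PD-1hi and 5.84 ± 0.17 in naive cells (SD, n = 4). Its memory against naive difference was 0.00 (95% interval -0.18 to 0.19, adjusted p = 0.99). The summed linear level of the 7 markers ran from 882 to 1102 in memory, 1751 to 3047 in PD-1int, 2473 to 3429 in PD-1hi and 505 to 560 in naive arrays. The markers did not move one way between memory and effector cells. Against memory, 2 of 7 rose and 2 fell in PD-1int (8.49% and 7.66% of all genes). In PD-1hi 2 rose and 3 fell (10.8% and 11.1%), and the median was -0.33 in each subset. Itga2 (1.78 in PD-1int and 1.86 in PD-1hi, SE 0.19) and Cd244a, the 2B4 receptor (2.98 and 4.03, SE 0.20), rose in both. Like Klrb1c, Klri2 (-1.17 and -1.05, SE 0.09) and Styk1 (-0.34 and -0.33, SE 0.11) fell in both, and Tyrobp fell in PD-1hi (-0.65 ± 0.15). Of the 3 measured markers of gamma-delta and innate-like T cells, among them Zbtb16, none was called in any of the 6 comparisons. The part of these markers in the Klrb1c result was not tested.

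**Figure D2:**
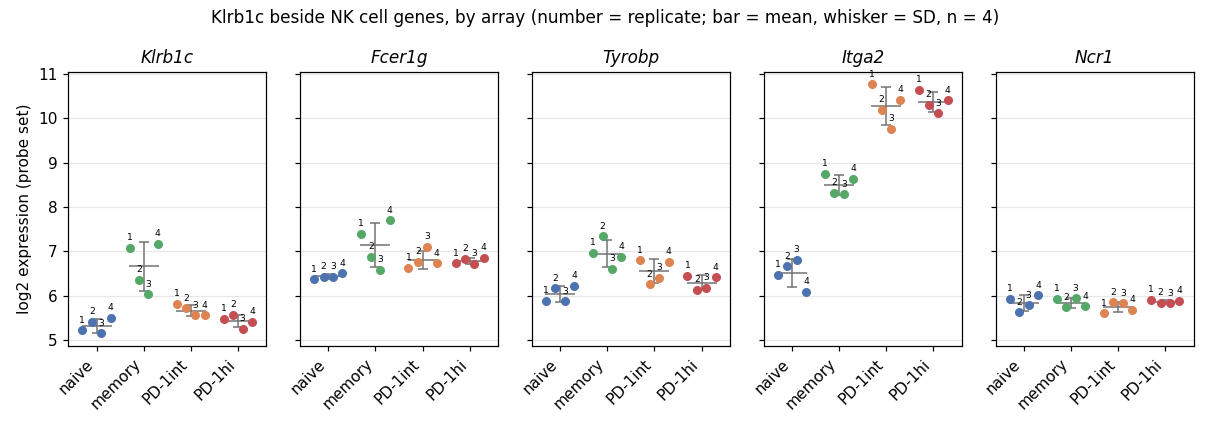
Log2 expression of Klrb1c, its partner Fcer1g, the adaptor Tyrobp, the integrin Itga2 and the NK receptor Ncr1 in the 16 arrays, numbered by replicate, with the mean and whiskers of 1 SD (n = 4). Memory replicates 1 and 4 are the highest memory arrays for Klrb1c, Fcer1g and Itga2, and replicate 2 is for Tyrobp. Itga2 is highest in effector arrays, and Ncr1 stays between 5.61 and 6.01.

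Klrb1f, which encodes NKR-P1F, rose in steps from naive through memory and PD-1hi to PD-1int. Its log2 values were 6.76, 6.00, 6.92 and 5.69 in naive and 7.56, 7.75, 7.65 and 7.67 in memory. They were 9.32, 10.08, 10.07 and 10.32 in PD-1int and 8.59, 7.80, 9.11 and 8.96 in PD-1hi. The 4 subsets did not overlap, naive and PD-1hi arrays were the most scattered, and memory arrays lay closest together. Against naive, the rise was 1.32 ± 0.28 in memory (adjusted p = 0.00405), 3.61 ± 0.28 in PD-1int (12.2-fold, adjusted p = 2.09e-08) and 2.27 ± 0.28 in PD-1hi (4.82-fold, adjusted p = 4.90e-06). PD-1int exceeded memory by 2.29 ± 0.28 (adjusted p = 1.42e-05). PD-1hi exceeded memory by 0.95 ± 0.28 (adjusted p = 0.0198), a call lost without PD-1hi replicate 3 (0.79, adjusted p = 0.0753) or replicate 4 (0.84, adjusted p = 0.0664). PD-1hi cells had 2.52-fold less than PD-1int cells (-1.34 ± 0.28, adjusted p = 0.0122). The genes nearest in profile were Ttc39c (0.49), Rnf43 (0.49), a ubiquitin ligase that restrains Wnt receptors, and Rap1gap2 (0.59), a regulator of the GTPase Rap1.

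Klrg1 had the largest rise of the 5 receptors in effector cells. Its log2 values were 5.64, 6.35, 5.85 and 6.23 in naive and 6.75, 6.53, 6.78 and 7.69 in memory. They were 10.13, 10.91, 10.88 and 10.59 in PD-1int and 9.97, 9.79, 9.64 and 9.51 in PD-1hi. Again the 4 subsets did not overlap, and memory replicate 4 stood above the other memory arrays. The rise against naive was 4.61 ± 0.22 in PD-1int (24.4-fold, adjusted p = 3.30e-11) and 3.71 ± 0.22 in PD-1hi (13.1-fold, adjusted p = 4.09e-10). In memory it was 0.92 ± 0.22 (1.89-fold, adjusted p = 0.00994). PD-1int and PD-1hi exceeded memory by 12.9-fold (3.69 ± 0.22, adjusted p = 2.00e-09) and 6.93-fold (2.79 ± 0.22, adjusted p = 3.69e-08). PD-1hi lay 1.86-fold below PD-1int (-0.90 ± 0.22, adjusted p = 0.0324). That call was lost in 6 of 8 fits that left out 1 of the arrays compared, namely PD-1int replicates 2, 3 and 4 and PD-1hi replicates 2, 3 and 4, with differences of -0.92 to -0.81 and adjusted p of 0.0604 to 0.103.

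The genes nearest to Klrg1 in profile were Cx3cr1 (0.48), a chemokine receptor of effector T cells, Itgad (0.54), the CD11d integrin chain, and Casp1 (0.58), the inflammatory caspase. Cx3cr1 averaged 10.91 in PD-1int, 10.20 in PD-1hi, 7.76 in memory and 7.11 in naive cells (log2), and fell from PD-1int to PD-1hi by 0.70 ± 0.16 (adjusted p = 0.0185). Klrb1f differed from Klrg1 by 0.93, which ranked it 51 in likeness to Klrg1, while Klrg1 ranked 259 in likeness to Klrb1f. Of the 7 measured markers of myeloid and dendritic cells (8 listed), 3 rose in each effector subset against naive and 1, Itgax, in memory. Against memory, 3 of the 7 rose and none fell in each effector subset. Like the 2 receptors, Cd68 (8.39) and Itgam (6.00) averaged less in memory than in either effector subset (log2). Cd68 had PD-1int and PD-1hi means of 10.80 and 10.99, and Itgam of 7.86 and 7.34. Itgax shared this for PD-1int cells (10.12) but, unlike the receptors, averaged more in memory (9.03) than in PD-1hi cells (8.49). The 3 that rose in effector cells were Cd68 (2.86 ± 0.17 in PD-1int), Itgam (1.55 ± 0.20) and Itgax (4.02 ± 0.25). The first is a lysosomal protein and the others are integrin chains also known from activated CD8 T cells. The summed linear level of the 7 ran from 2900 to 3875 in PD-1int, 2118 to 3438 in PD-1hi, 1064 to 1250 in memory and 545 to 776 in naive arrays. The other measured markers, Lyz2, Csf1r, Adgre1 and Cd14, did not pass against naive in either effector subset. Their mean log2 values ran from 4.98 to 6.58 in all 4 subsets. The 1 call among these 4 was Lyz2 in PD-1hi against memory (0.53 ± 0.19, adjusted p = 0.0492). The part of these markers in the Klrg1 and Klrb1f results was not tested.

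Counted over the receptors, 5 of 5 rose in memory against naive, where 6.70% of all genes were higher and 5.02% lower. In PD-1int against naive 4 of 5 rose (11.9% of all genes) and none fell (10.8%), and in PD-1hi against naive 3 of 5 rose (13.4%) and none fell (13.7%). In PD-1int against memory 2 rose (8.49% of all genes) and 3 fell (7.66%), and in PD-1hi against memory the same 2 rose (10.8%) and the same 3 fell (11.1%). From PD-1int to PD-1hi, 3 of 5 fell (1.94% of all genes) and none rose (1.37%). The same shares of all genes apply to the counts given for the gene lists in these comparisons. The arrays of the compared subsets did not overlap for 5 of 5 receptors in memory against naive (15.7% of all genes), PD-1int against naive (23.6%), PD-1int against memory (20.6%) and PD-1hi against memory (23.9%). They did not overlap for 3 of 5 in PD-1hi against naive (25.9%) and for 3 of 5 in PD-1hi against PD-1int (8.89%). The comparisons that share a subset share its arrays and are not independent. The receptors were chosen with earlier results known, so the counts describe them.

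**Figure D3:**
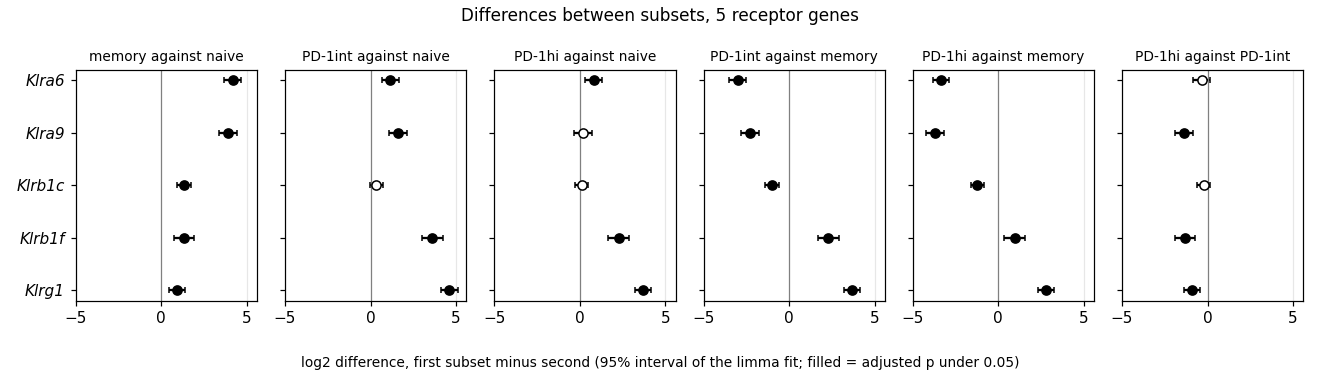
Log2 difference of each receptor gene (rows) in the 6 comparisons of subsets (panels, first subset minus second, same horizontal axis), with the 95% interval of the limma fit, and filled points where the adjusted p was under 0.05. Klra6, Klra9 and Klrb1c lie left of 0 and Klrb1f and Klrg1 right of 0 in both comparisons of effector cells with memory, and every point of PD-1hi against PD-1int lies left of 0, with those of Klra6 and Klrb1c open.

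The other killer lectin-like receptors behaved in several ways. Of 22 listed, 15 had a probe set of their own, and 7 of the 15 rose in memory against naive, 6 rose and 2 fell in PD-1int, and 6 rose and 1 fell in PD-1hi. Their median log2 differences were 0.20, 0.17 and 0.13, against -0.02, -0.03 and -0.01 over all genes. Klra5, which encodes Ly49E and is the third measured Ly49 receptor to rise, followed Klra6 and Klra9: it averaged 7.77 ± 0.36 in memory, 6.33 ± 0.66 in PD-1int, 5.84 ± 0.66 in PD-1hi and 4.82 ± 0.29 in naive cells (SD, n = 4). It fell from memory by 1.44 ± 0.31 in PD-1int (adjusted p = 0.00295) and by 1.93 ± 0.31 in PD-1hi (adjusted p = 1.24e-04). Klra2 and Klra17, the other Ly49 genes measured, were not called in any comparison, nor were the NK1.1 relatives Klrb1 and Klrb1b. Klrk1, the NKG2D receptor, and Klre1, which forms inhibitory or activating dimers, rose against naive in all 3 other subsets. Klrk1 was the 1 listed receptor that rose from memory to PD-1int (1.23 ± 0.21, adjusted p = 3.43e-04). Klrc1 and Klrc2, of the NKG2 family, rose in all 3 subsets as well (2.67 ± 0.20 and 3.94 ± 0.32 in memory), as did Klrc3. The receptors that fell against naive were Klrd1, the CD94 partner of the NKG2 chains, in both effector subsets (-0.43 and -0.75, SE 0.14) and Klri2 in PD-1int (-0.36 ± 0.09). From PD-1int to PD-1hi, 3 of 15 fell, Klrc1, Klrc2 and Klrk1, with a median of -0.09 over the 15 and 0.01 over all genes.

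**Figure D4:**
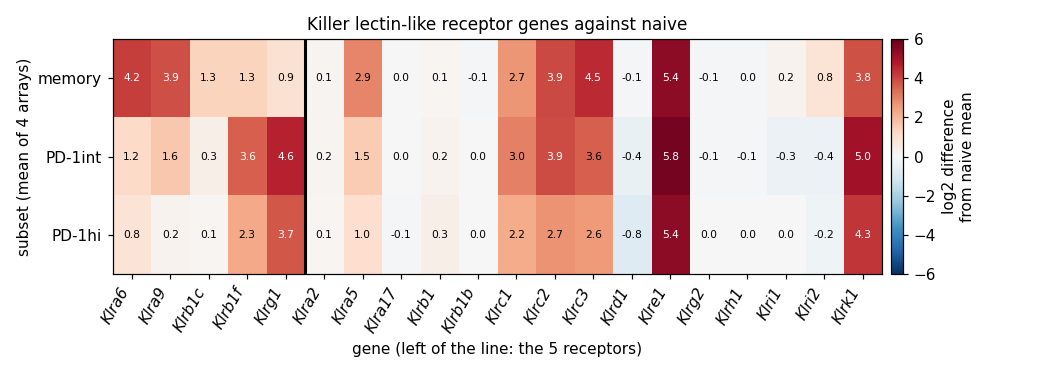
Difference in mean log2 expression from naive (colour and printed value) in memory, PD-1int and PD-1hi cells for the 5 receptors (left of the line) and the 15 other measured killer lectin-like receptor genes. Klra5 shares the memory-high profile of Klra6 and Klra9, and Klrk1 and Klre1 are high in all 3 subsets.

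Genes of the signaling partners of these receptors were examined next. The phosphatase list has 3 genes. Ptpn6 (SHP-1) averaged 11.63 in memory, 10.29 in PD-1int, 9.42 in PD-1hi and 10.96 in naive cells (SD 0.05 to 0.16). It rose in memory by 0.67 ± 0.09 (adjusted p = 2.59e-05) and fell against naive in PD-1int by 0.67 ± 0.09 (adjusted p = 8.75e-06) and in PD-1hi by 1.54 ± 0.09 (adjusted p = 1.53e-10). Ptpn11 (SHP-2) rose against naive in PD-1int (0.61 ± 0.10) and PD-1hi (0.81 ± 0.10), and Inpp5d (the lipid phosphatase SHIP-1) rose in all 3 subsets (0.54 to 0.85). Of 7 measured adaptors and kinases (9 listed), 5 rose against naive in memory cells, 4 in PD-1int cells, 3 in PD-1hi cells, and none fell, with medians of 0.43, 0.42 and 0.26. Fyn and Zap70, kinases of antigen-receptor signaling, rose in all 3 subsets, each by 1.11 in PD-1hi (SE 0.06 and 0.08). Tyrobp fell from memory to PD-1hi by 0.65 ± 0.15 (adjusted p = 0.00337).

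Among 10 measured ligand genes (12 listed), 2 rose and none fell in memory against naive (6.70% and 5.02% of all genes). Against naive, 1 rose and none fell in PD-1int (11.9% and 10.8%), and 1 rose and 1 fell in PD-1hi (13.4% and 13.7%). Against memory, 1 rose and 1 fell in PD-1int (8.49% and 7.66%) and in PD-1hi (10.8% and 11.1%). From PD-1int to PD-1hi none rose (1.37%) and 1 fell (1.94%). Clec2i averaged 9.56 in memory and 8.18 in PD-1hi cells (log2). Clec2i, whose product Clr-g binds NKR-P1F, fell in PD-1hi by 0.91 ± 0.13 against naive (adjusted p = 2.76e-05) and by 0.96 ± 0.13 against PD-1int (adjusted p = 3.04e-04), and was higher in memory than in naive (0.47 ± 0.13, adjusted p = 0.0248). H2-K1, a class I MHC heavy chain, rose in PD-1int against naive (0.19 ± 0.06, adjusted p = 0.034), and Clec2h rose in memory (0.27 ± 0.08, adjusted p = 0.0386) and PD-1hi (0.31 ± 0.08, adjusted p = 0.00882). Cdh1, Cdh2 and Cdh4, the cadherin ligands of KLRG1, were not called in any comparison, and Cdh1 in PD-1int against naive gave -0.23 (95% interval -0.50 to 0.03).

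Transcription factors of effector and memory states changed in both directions. Of 10 measured (12 listed), 3 rose and 3 fell in memory against naive, 6 rose and 3 fell in PD-1int, and 5 rose and 5 fell in PD-1hi. Tbx21, which encodes T-bet, averaged 10.20 in memory, 9.80 in PD-1int, 9.17 in PD-1hi and 7.22 in naive cells, and fell from PD-1int to PD-1hi by 0.63 ± 0.13 (adjusted p = 0.0118). Eomes, its relative, rose by 2.21 ± 0.09, 3.15 ± 0.09 and 3.26 ± 0.09 in memory, PD-1int and PD-1hi. Prdm1, which encodes Blimp-1, rose by 1.02 ± 0.24, 2.89 ± 0.24 and 3.71 ± 0.24, and Bach2, a factor that holds back effector genes, fell (-1.20, -2.03 and -2.65, SE 0.12). Of the 9 genes listed for terminal effector cells, 8 rose and 1 fell in memory against naive. In PD-1int 7 rose and 1 fell, and in PD-1hi 5 rose and 2 fell. Not all of the list was highest in effector cells. S1pr1 averaged 11.94 in naive and 9.79 in PD-1hi cells, and Il18r1 10.86 in memory and 6.92 in PD-1hi cells. Gzma and Gzmb (granzymes), Prf1 (perforin) and Il2rb (an interleukin receptor chain) rose in all 3 subsets. From PD-1int to PD-1hi, 4 of the 9 fell, Cx3cr1, S1pr1, S1pr5 and Il18r1, and none rose.

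The sort and the cell identity were checked on the arrays. Cd8a stood between 11.19 and 11.73 in all 16 arrays and was not called in any comparison. Of the 7 genes of CD8 T cell identity, 1 rose in memory against naive (Thy1), 2 rose and 1 fell in PD-1int, and 3 rose and 2 fell in PD-1hi. Cd8b1, the CD8 beta chain, fell in PD-1int (-0.32 ± 0.07) and PD-1hi (-0.33 ± 0.07), Thy1 fell in PD-1hi (-0.31 ± 0.09), and Cd2 and Cd3e rose in both, with Cd3g in PD-1hi. Il7r, Cd44 and Pdcd1, the genes of the sort markers, followed the gates, with Pdcd1 higher in PD-1hi than in PD-1int by 1.29 ± 0.15 (adjusted p = 4.53e-05). The B-cell genes Cd79a and Ms4a1 were not called in any comparison. Of the 8 measured B-cell and CLL-cell markers (9 listed), Cd79b fell in both effector subsets and Cd5, also a T-cell gene, rose in PD-1int against naive. Of 4 CD4 T-cell markers 1, Zbtb7b, rose in each subset against naive, and of 2 erythroid and platelet markers measured (6 listed) 1, Ppbp, rose in PD-1hi.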

How the data were processed

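The authors deposited log2 expression values, 1 per probe set and array. Per the labels' protocols, RNA was labelled with a WT Pico kit for Affymetrix mouse gene ST arrays, and the submitters' processing notes name Affymetrix Power Tools. How probes were summarised, and with which version and annotation, is not given in the sources used here. Base 2 was read from the range of values, 2.347 to 14.125. Array medians lay between 6.394 and 6.489.

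Of 41345 probe sets, 23521 carry 1 gene symbol, 1814 several and 16010 none. Symbols were checked against RefSeq by Entrez identifier (23328 matched, 0 changed). A gene was represented by its probe set of highest mean across all 16 arrays, which left 22180 genes, without a filter on dim genes. The number of arrays limits the precision.

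All 16 arrays were fitted together with limma 3.58.1 in R 4.3.3 (a mean per subset, no block, eBayes, p-values for either direction), and p-values were Benjamini-Hochberg adjusted over all genes of a comparison. The fit was tested on simulated data. Named are the 5 receptors, the sort genes, up to 4 genes of each list ranked by adjusted p, the members needed to read small counts, and the 3 nearest genes per receptor (predicted and small RNA loci left out). Klra5, Klrc3, Klrd1, Klra2, Klra17, Klrb1, Klrb1b, the marker genes and the falling genes of the terminal effector list were named after their values were seen. The receptors and the gene lists were chosen with earlier results of these data known. Alternatives were a replicate block, a fit of the 8 arrays compared, leaving out the 40% dimmest genes, the mean of probe sets, quantile normalization, centring on array medians, a trended and robust eBayes, weights per array and leaving out each array.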

Additional observations from a re-analysis of the deposited data

Results flagged for a closer look

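In naive replicate 3 Klra9 stood at 3.70, apart from the other 3 naive arrays at 4.39 to 4.44, with a gap of 0.93 of the whole range of the 4 arrays, above Dixon's 95% critical value for a set of that size. Of the 20 sets of 4 arrays examined (5 receptors in 4 subsets), 1 passed that value, and by its definition about 1 in 20 such sets would pass by chance.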

How the results depend on the processing

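Across 30 receptor differences and 468 repeats of them, 458 kept the direction and the side of the threshold, 9 lost and 1 gained a call, and 0 reversed; the 10 are given with the genes in the report. Without the 40% dimmest genes, Klra9 and Klrb1c were not tested, which left 3 receptors, and 3 were called in memory against naive, PD-1int against memory and PD-1hi against memory, in place of 5 each. For PD-1hi against PD-1int the count of all genes called was 734 and ranged from 470 (without PD-1int replicate 1) to 751 when 1 array was left out, with 474 without PD-1hi replicate 4. With the replicate block it was 748, and 2633 in place of 2601 for memory against naive; the block changed no receptor's call. The labels do not say whether equal numbers mark the same mouse, so the numbers were not taken as pairs. Sample titles carry the same numbered prefixes in every subset. Deviations of arrays with the same number correlated across genes at -0.05 to 0.15 (above 0.1 in 2 of 24 pairs). The median was 0.04 for the same number and -0.01 for different numbers. Such correlations cannot decide whether the arrays were paired. No scaling moved the median difference of all genes by more than 0.1. The cause of lost calls was not tested. Each receptor rests on 1 probe set, and low values carry no detection call.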

Other observations

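PD-1int replicate 1 had the lowest value of the 4 PD-1int arrays for Klra6 (5.34 against 6.12 to 6.51), Klra9 (4.83 against 5.99 to 6.32), Klrb1f (9.32 against 10.07 to 10.32) and Klrg1 (10.13 against 10.59 to 10.91), and the highest for Klrb1c (5.82 against 5.56 to 5.72) and Itga2 (10.76 against 9.75 to 10.41). In PD-1hi cells, replicate 2 had the lowest Klrb1f (7.80) and the highest Klra6 (6.05), Klra9 (4.72), Klrb1c (5.58) and Klra5 (6.60). These values were noticed after the data were seen and carry no test.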
